A study of Mus musculus with 20 samples.

Results

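The 7 genes described here, Hras, Nras, Araf, Braf, Map2k1, Map2k2 and Mapk3, encode kinases of the RAS to ERK cascade and the RAS switches above them, and every array probe that carries the name of one of them was taken. They are 7 of 25039 genes on the arrays with a RefSeq symbol and have 19 of the 56605 probes, and 13 of the 19 were well above background on all 20 arrays. Transcript levels were measured in mouse intestinal tissue (strain C57BL6/j) on 1-colour Agilent microarrays, 1 array per sample, in 2 experiments. In the first, 6 Cre control samples came from VillinCreER/0 mice, which carry a tamoxifen-activated Cre recombinase driven by the Villin promoter in gut epithelium, and 6 BRAFV600E samples came from mice that carried in addition 1 inducible copy of the mutant kinase (BrafV600E-LSL/+). All 12 mice were 8 to 12 weeks old, received 3 injections of tamoxifen and were sampled 3 days after the last. In the second, 4 MEKi samples came from mice given PD184352, an inhibitor of the MEK kinases, and 4 Vehicle samples from mice given the carrier alone. Both groups received 2 injections of tamoxifen and then inhibitor or carrier for 3 days. Their genotype, with the same mutant allele, comes from the legends of the study, whose methods give 8 to 12 weeks as the usual age at induction but no separate age for these 8 mice. The treatment text in the labels names a statin and female mice, is the same for all 20 samples and fits none of the groups, so it was not used.

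In this cascade a growth factor receptor switches RAS proteins to their GTP-bound form, RAS recruits and activates RAF kinases, RAF phosphorylates MEK, and MEK phosphorylates ERK. ERK then acts on other kinases and on transcription factors, some of whose target genes encode inhibitors of the same cascade. In the intestinal epithelium the cascade supports proliferation in the crypts, and the V600E change makes BRAF active without RAS. The arrays measured transcript levels of these kinases, not their phosphorylation or activity, and whether any Braf probe tells the mutant from the normal allele was not tested.

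Levels are given as the log2 of the processed intensity minus the 75th percentile of the array, so that 0 is that percentile and a difference of 1 is a 2-fold change. Levels of different probes were not compared with each other, because probes differ in how brightly they light up. A gene's leading probe is the one with the highest mean over the 20 arrays. Differences were tested with limma, 1 experiment at a time, over all probes well above background on enough arrays (6 of 12 or 4 of 8), and a probe counts as called where p, adjusted by Benjamini-Hochberg over all of them, was under 0.05. The samples are separate mice only as far as the labels give 1 name to each, so the p-values measure the spread between these samples. In whole tissue, fewer cells of a type and less RNA per cell cannot be told apart.

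The arrays were not alike. All 6 Cre control arrays and BRAFV600E arrays 1 and 2 lay on slide 1, BRAFV600E arrays 3 to 6 on slide 2, and the second experiment on slide 3, with MEKi in its first row and Vehicle in its second, so that row and treatment cannot be told apart there. The slope of the spike-in dose response, a check on labelling written by the scanner software, was within the accepted range (1.02 to 1.08) on Cre control arrays 1, 4 and 6, on BRAFV600E arrays 1 and 2 and on slide 3. It was below the range (0.759 to 0.843) on Cre control arrays 2, 3 and 5, and written as 0 on slide 2. The 2 classes of Cre control arrays, 3 against 3, did not overlap for 28.6% of the 38501 probes tested. All 7 epithelial markers (Epcam, Vil1, Cdh1 and others) were well above background on every array, as were all 6 smooth muscle and all 6 fibroblast markers. The summed linear level of 4 myeloid markers was lower in BRAFV600E (83.6 to 219.8) than in Cre control (237 to 378) and higher in MEKi (266 to 386) than in Vehicle (146 to 247). Lyz2, with a mean log2 level of 7.91 in Cre control, weighs most in this sum. In MEKi against Vehicle limma called 0 of the 4 markers, of which 3 lay above 0 and 1, Cd68, below (-0.11). On Vehicle array 2 the summed level of 5 exocrine pancreas markers was 1497, against 3.23 to 8.76 on the other 19 arrays. In BRAFV600E against Cre control limma called 2 of 4 myeloid, 2 of 5 T lymphoid and 1 of 5 enteric neuron and glia markers lower, and 2 of 7 epithelial, 2 of 6 smooth muscle and 1 of 4 tested pancreas markers higher. Y-linked genes were read on 3 Cre control, 4 BRAFV600E, 4 MEKi and 2 Vehicle arrays, so both sexes were present in each group but MEKi. The part of cell makeup and sex in the differences given here was not tested, beyond a fit with the Y-linked level as a covariate.

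In BRAFV600E against Cre control, 3 probes of the 7 genes were higher and none was lower: the leading probe of Map2k1, which encodes MEK1, by 1.05 on the log2 scale, the leading probe of Nras by 0.56, and a second-rank probe of Map2k2, which encodes MEK2, by 0.88. These were 3 of the 15 probes tested, where 9.33% of all probes tested were called (5.12% of all tested higher and 4.21% lower). Of the 15 probes 10 lay above 0 and 5 below, with a median difference of 0.34, against -0.01 over all probes tested. Among the leading probes 6 of 7 lay above 0, between 0.29 and 1.05, and only that of Araf lay below (-0.15). The other 4 probes, 2 of Hras, 1 of Braf and 1 of Map2k2, were too dim to be tested in this comparison. None of the 3 calls was kept when slide entered the fit as a block, or when the 3 Cre control arrays with low spike-in slopes were left out, as given for each gene below. Slide 2 holds BRAFV600E arrays alone, so the block fit sets Cre control against only the 2 BRAFV600E arrays of slide 1. Its estimates are those of a fit within slide 1, and the arrays of slide 2 add only to the measure of spread. Calls over the whole array also fell in these fits, from 3591 probes to 1974 (5.13%) with slide as a block and to 515 (1.34%) without the 3 arrays, so that 0 of 15 is near the share of the array.

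**Figure D1:**
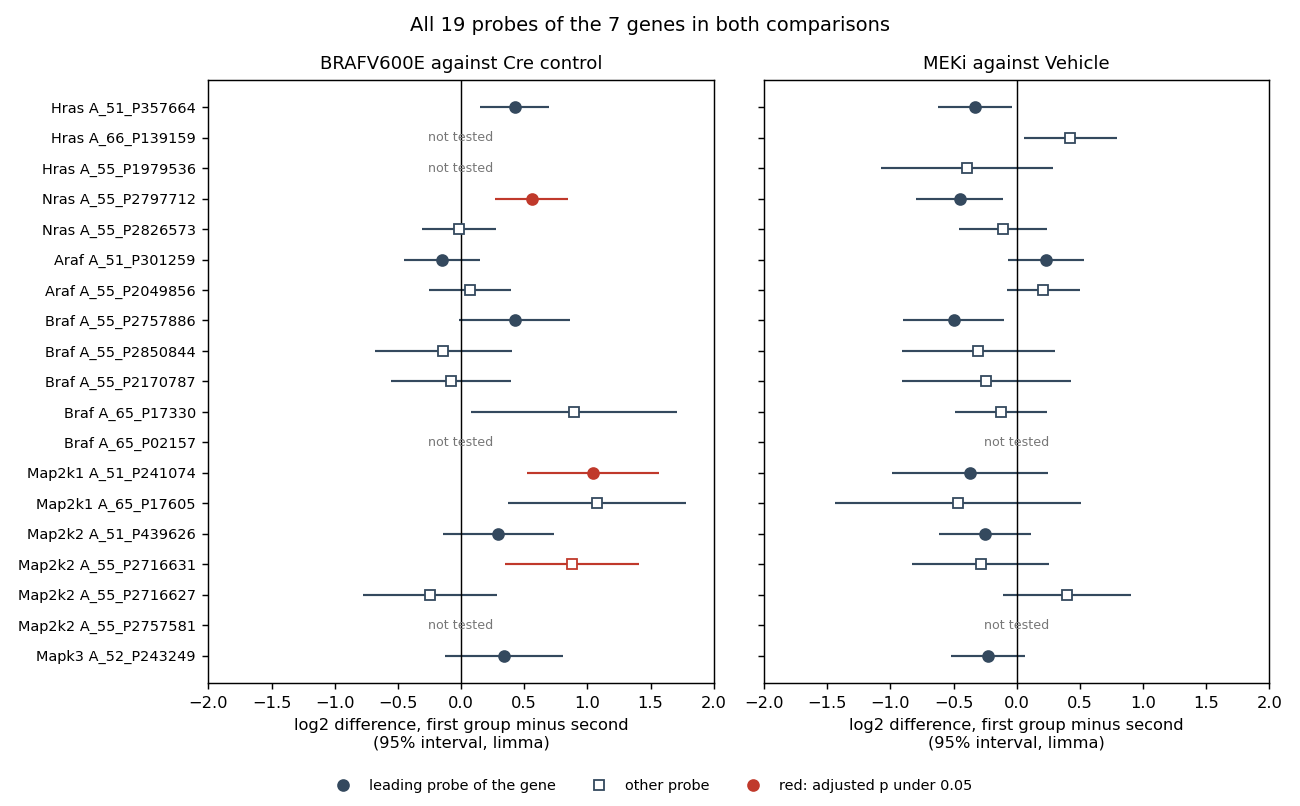
Log2 difference (horizontal axis, with 95% interval from limma) of each of the 19 probes of the 7 genes, BRAFV600E minus Cre control on the left and MEKi minus Vehicle on the right. Filled circles are leading probes, open squares other probes, and red marks an adjusted p under 0.05: 3 probes on the left and none on the right.

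Hras and Nras encode RAS proteins, the membrane-bound switches at the top of the cascade. The leading Nras probe was the only one of those tested whose groups did not overlap. Its level was lowest at 1.13, median 1.22 and highest at 1.57 on the Cre control arrays. On the BRAFV600E arrays it was 1.63, 1.80 and 2.08. Every BRAFV600E array was thus above every Cre control array. Groups without overlap were found for 1 of the 15 member probes tested and for 6.41% of all probes tested, in either direction. The difference was 0.56 ± 0.13 (SE, limma adjusted p = 0.0231), a 1.47-fold higher level with a 95% interval of 1.21 to 1.80. The spike-in classes hardly differed for this probe: the Cre control mean was 1.29 on the arrays in range and 1.29 on those below it. Without the 3 arrays below range the difference was 0.56 (adjusted p = 0.158), and with slide as a block it was 0.44 (adjusted p = 0.181), so its size was kept while the call was not. The call was also lost on leaving out Cre control array 5 (adjusted p = 0.0526) or BRAFV600E array 3 (adjusted p = 0.0508).

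The second Nras probe, which starts 3179 bases further along the plus strand, did not show this difference. It read 0.99, 1.24 and 1.39 (lowest, median, highest) in Cre control and 0.89, 1.30 and 1.39 in BRAFV600E. The difference was -0.02 with a 95% interval of -0.31 to 0.28, which does not reach the estimate of the first probe. Both are 60-base probes named for the same transcript (mm9, chr3:102868516-102868574 and chr3:102871695-102871754), and both were well above background on all 20 arrays. The levels of the 2 probes, each taken as the deviation from its group mean, had r = 0.58 over the 20 arrays. With the 2 probes averaged, Nras differed by 0.27 (limma adjusted p = 0.175) and was not called. The first 30 bases of the leading probe are shown because the Nras call rests on it alone.
Nras leading probe, bases 1 to 30: aactgttgaacttggccttgttggtttggg

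The leading Hras probe moved the same way but was not called. It read 1.74, 1.85 and 2.02 (lowest, median, highest) in Cre control and 1.92, 2.31 and 2.50 in BRAFV600E, with only the lowest BRAFV600E array inside the Cre control range. The difference was 0.43 ± 0.13 (SE, limma adjusted p = 0.0526), and with slide as a block 0.26 (adjusted p = 0.36). Over 27 alternative fits it ranged from 0.26 to 1.23 (limma adjusted p from 0.00978 to 0.600) and was called in 8. The 2 other Hras probes were near background, well above it on 9 and 11 of the 20 arrays. The leading probe lies on the minus strand at mm9 chr7:148377296-148377355 and is shown whole, as the only Hras probe read on every array.
Hras leading probe: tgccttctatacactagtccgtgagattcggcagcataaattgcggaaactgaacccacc

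Araf and Braf encode RAF kinases, which pass the signal from RAS to MEK. Braf, the gene that carries the mutant allele in these mice, had the most probes (5, of which 4 were tested) and they did not move together. Its leading probe read -1.22, -0.78 and -0.43 (lowest, median, highest) in Cre control and -0.82, -0.43 and 0.11 in BRAFV600E, with overlapping ranges. The difference was 0.42 ± 0.20 (SE, limma adjusted p = 0.198). It was 0.83 with slide as a block (adjusted p = 0.073) and 0.15 without the 3 Cre control arrays below the spike-in range (adjusted p = 0.771). Both slide and spike-in class thus moved this value by more than 1.5 times, in opposite directions.

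The remaining Braf probes ranged from -0.14 to 0.90. The probe at mm9 chr6:39589607-39589666 on the minus strand, 36165 bases from the leading probe, had the largest estimate of the Braf probes, 0.90 ± 0.38 (SE, limma adjusted p = 0.146). It read -5.38, -4.34 and -3.25 in Cre control and -4.01, -3.54 and -2.60 in BRAFV600E. The 2 BRAFV600E arrays of slide 1 were at -2.68 and -2.60, above the 4 of slide 2, which lay between -4.01 and -3.27. The other 2 tested probes differed by -0.14 and -0.08, with 95% intervals from -0.69 to 0.40 and from -0.55 to 0.40. For the probe with the largest estimate, the difference was 1.65 with slide as a block, 0.29 without the 3 Cre control arrays below the spike-in range and 0.0024 with normexp background correction, where it was no longer the largest (leading probe 0.23). It is printed because it lies upstream of the other Braf probes.
Braf probe with the largest estimate: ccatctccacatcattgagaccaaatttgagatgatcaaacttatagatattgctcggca

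Araf, on chromosome X, was the 1 gene whose leading probe was lower in BRAFV600E than in Cre control, without passing the test. It read 2.76, 3.09 and 3.17 (lowest, median, highest) in Cre control and 2.54, 2.90 and 3.22 in BRAFV600E. The difference was -0.15 ± 0.14 (SE, limma adjusted p = 0.512) with a 95% interval of -0.45 to 0.15. The second Araf probe, 7661 bases away, differed by 0.07 (95% interval -0.25 to 0.40). The deviations of the 2 Araf probes from their group means had r = -0.09 over 20 arrays.

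Map2k1 and Map2k2 encode the MEK kinases, the targets of PD184352. Map2k1 had the largest difference of the 7 leading probes and the widest spread among control arrays. It did not have the largest without the 3 Cre control arrays below the spike-in range, or with that class as a covariate. Nras was then at 0.56 and Map2k1 at 0.54. The leading Map2k1 probe read 0.19, 0.73 and 1.53 (lowest, median, highest) in Cre control and 1.52, 1.90 and 2.09 in BRAFV600E, and only the highest Cre control array reached the BRAFV600E range. The difference was 1.05 ± 0.24 (SE, limma adjusted p = 0.0203), a 2.06-fold higher level with a 95% interval of 1.44 to 2.97. The call was kept on leaving out each of the 12 arrays in turn (adjusted p from 0.00732 to 0.0466).

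The Cre control arrays split by spike-in class for this probe. The 3 arrays in range read 1.34, 1.53 and 1.06, and the 3 below range read 0.39, 0.19 and 0.31. The 2 BRAFV600E arrays of slide 1, also in range, read 1.94 and 1.93, and the 4 of slide 2 lay between 1.52 and 2.09. The arrays in range on slide 1, 3 against 2, differed by 0.62 (adjusted p = 0.392), and without the 3 arrays below range the difference was 0.54 (adjusted p = 0.182). With slide as a block it was 1.13 (adjusted p = 0.0854). The sign was kept in all of these, and the estimate moved by over 1.5 times once the arrays below range were out.

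The second Map2k1 probe, 896 bases away, behaved like the first. It read -2.59, -1.53 and -0.64 in Cre control and -1.13, -0.60 and -0.25 in BRAFV600E, a difference of 1.08 ± 0.32 (SE, limma adjusted p = 0.0552). Without the 3 arrays below the spike-in range it was 0.44 (adjusted p = 0.39). The deviations of the 2 probes from their group means had r = 0.91 over 20 arrays, the highest of the 7 pairs of same-gene probes that were compared. Both are shown because they read separate stretches of 1 transcript with the same pattern: the first at mm9 chr9:64034232-64034291, the second over chr9:64035128-64035527, both on the minus strand. The 60 bases of the second cover 400 bases of genome, so it crosses an intron.
Map2k1 leading probe, bases 1 to 30: ctttgtgcttggggctatttgtctgttcat
Map2k1 second probe: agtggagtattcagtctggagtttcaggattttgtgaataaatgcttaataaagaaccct

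Map2k2 gave different answers by probe. Its leading probe, on the RefSeq transcript, read 3.31, 3.79 and 4.06 (lowest, median, highest) in Cre control and 3.51, 4.19 and 4.34 in BRAFV600E, a difference of 0.29 ± 0.20 (SE, limma adjusted p = 0.374). Those BRAFV600E arrays fell into 2 sets, 3.51 and 3.55 on slide 1 and 4.17 to 4.34 on slide 2, and within slide 1 the difference was -0.19. The called probe, named for an Ensembl transcript and 243 bases from the leading one, read -3.86, -2.86 and -2.11 in Cre control and -2.18, -1.995 and -1.84 in BRAFV600E.

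That second difference was 0.88 ± 0.25 (SE, limma adjusted p = 0.0432), a 1.84-fold higher level with a 95% interval of 1.27 to 2.66. It stood at 0.90 with slide as a block (adjusted p = 0.162) and at 0.79 without the arrays below the spike-in range (adjusted p = 0.271). The call was lost in 9 of the 12 fits that left out 1 array, and normexp background correction lowered the estimate to 0.30 (adjusted p = 0.192). Another Map2k2 probe differed by -0.25 (95% interval -0.77 to 0.28), and the last, which bears the name Map2k2 only in the array design of slide 3, was near background throughout. The first 2 probes are printed because they lie next to each other on the plus strand (mm9 chr10:80585320-80586386 and chr10:80585077-80585136). The leading one covers 1067 genomic bases with its 60, and so crosses an intron, while the called one lies in a single stretch with a stop codon in all 3 forward frames.
Map2k2 leading probe: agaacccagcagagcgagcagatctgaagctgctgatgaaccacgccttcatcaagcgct
Map2k2 called probe: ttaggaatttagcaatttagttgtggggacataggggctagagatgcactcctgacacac

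Mapk3, with 1 probe, encodes ERK1, a kinase at the end of the cascade. Its levels were 3.81, 4.39 and 4.65 (lowest, median, highest) in Cre control and 3.92, 4.77 and 5.10 in BRAFV600E. The difference was 0.34 ± 0.22 (SE, limma adjusted p = 0.337). All 4 BRAFV600E arrays of slide 2 lay above every Cre control array, from 4.76 to 5.10, while the 2 of slide 1 read 3.92 and 4.51 and lay inside their range. Within slide 1 the difference was -0.10.

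**Figure D2:**
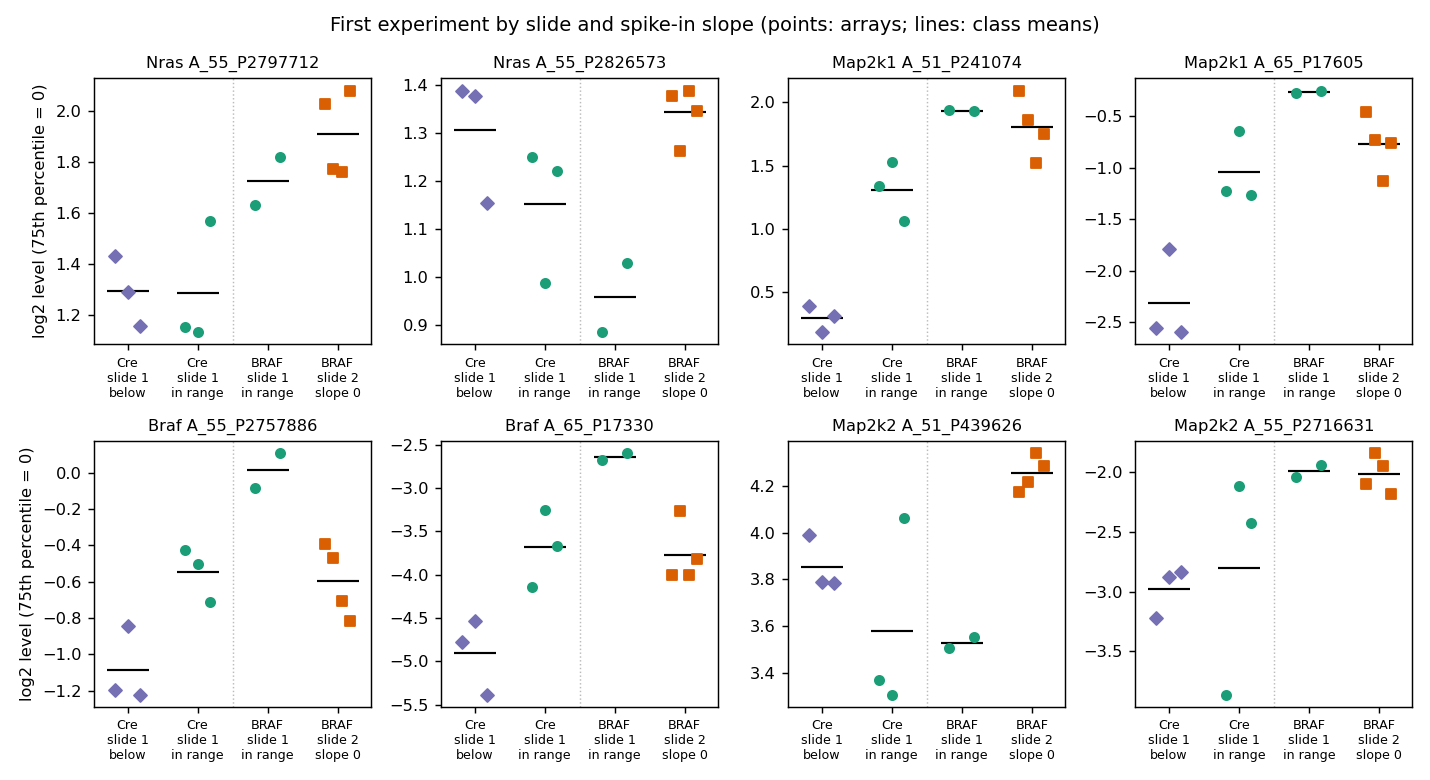
Log2 level (vertical axis) of 8 probes on the 12 arrays of the first experiment, by group, slide and spike-in class, with 1 point per array and a line at each class mean. Map2k1 and Braf separate the 2 classes of Cre control arrays, and the leading Nras probe does not. The leading Map2k2 probe, the second Nras probe, the second Map2k1 probe and both Braf probes separate the 2 slides of BRAFV600E.

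The Cre control arrays in and below the spike-in range did not overlap for 6 of the 15 probes tested. Over the whole array they did not for 28.6% of 38501 probes, with the arrays in range higher for 6780 and lower for 4247. In 4 of the 6 member probes the arrays in range were higher: both Map2k1 probes, the leading Braf probe and the Braf probe far upstream. In the other 2, the leading Araf probe and a dim Map2k2 probe, they were lower. The part of spike-in class in the group differences was not tested beyond the fits given here.

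In MEKi against Vehicle, 0 of the 17 probes tested were called by limma, with the smallest adjusted p at 0.244, where 0.927% of all probes were called (0.52% higher and 0.408% lower). Without adjustment, 4 of the 17 had a p under 0.05, as had 5199 of all 39249 probes. Of the 17, 4 lay above 0 and 13 below, with a median of -0.25 against 0.03 over all probes. Among the leading probes 6 of 7 lay below 0, from -0.50 to -0.23, and only that of Araf lay above, at 0.23.

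The leading Nras probe read 1.16, 1.48, 1.42 and 1.45 on the 4 MEKi arrays and 1.82, 1.57, 2.02 and 1.90 on the 4 Vehicle arrays. Every MEKi array was below every Vehicle array. The difference was -0.45 ± 0.15 (SE, limma adjusted p = 0.244), and it was -0.54 (adjusted p = 0.178) without Vehicle array 2, the one with the pancreas signal. The second Nras probe differed by -0.11 (95% interval -0.45 to 0.24).

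The leading Hras probe read 2.30, 2.41, 2.50 and 2.45 in MEKi and 2.64, 2.63, 2.90 and 2.80 in Vehicle, again without overlap. The difference was -0.33 ± 0.13 (SE, limma adjusted p = 0.313). These were the 2 of 17 probes whose groups did not overlap, where 10.1% of all probes did not. A dim Hras probe was well above background on all 4 MEKi arrays but only 1 Vehicle array. It passed the filter through the MEKi arrays, so no direction is read from it, although it is 1 of the 4 probes above 0 and 1 of the 4 with an unadjusted p under 0.05. The third Hras probe, also dim, was well above background on 4 MEKi and 3 Vehicle arrays. It differed by -0.39 (95% interval -1.07 to 0.29).

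The leading Braf probe read -0.92, -0.42, -0.68 and -0.68 in MEKi and -0.27, 0.14, -0.44 and -0.13 in Vehicle. MEKi array 2 and Vehicle array 3 overlapped, and the difference was -0.50 ± 0.17 (SE, limma adjusted p = 0.266). The 3 other Braf probes tested lay between -0.31 and -0.13, none past an unadjusted p of 0.05. The leading Araf probe read 3.31, 3.23, 3.14 and 3.33 in MEKi and 3.14, 2.86, 3.16 and 2.92 in Vehicle, a difference of 0.23 ± 0.13 (SE, limma adjusted p = 0.52). Its second probe gave 0.21 (95% interval -0.08 to 0.50).

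The leading Map2k1 probe split the MEKi arrays. It read 1.53, 2.49, 2.21 and 1.48 in MEKi and 2.26, 2.08, 2.12 and 2.74 in Vehicle. MEKi arrays 1 and 4 were below all Vehicle arrays and the other 2 were among them. The difference was -0.37 ± 0.27 (SE, limma adjusted p = 0.632), and the second Map2k1 probe, with the same 2 arrays low, gave -0.46 (95% interval -1.44 to 0.51). The leading Map2k2 probe differed by -0.25 (95% interval -0.62 to 0.11) and the probe called in the first experiment by -0.28 (-0.83 to 0.26). A dim Map2k2 probe differed by 0.40 (95% interval -0.11 to 0.91). Mapk3 read 5.06, 5.18, 4.96 and 5.24 in MEKi and 5.37, 5.41, 5.36 and 5.21 in Vehicle, with a difference of -0.23 ± 0.13 (SE, limma adjusted p = 0.513).

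**Figure D3:**
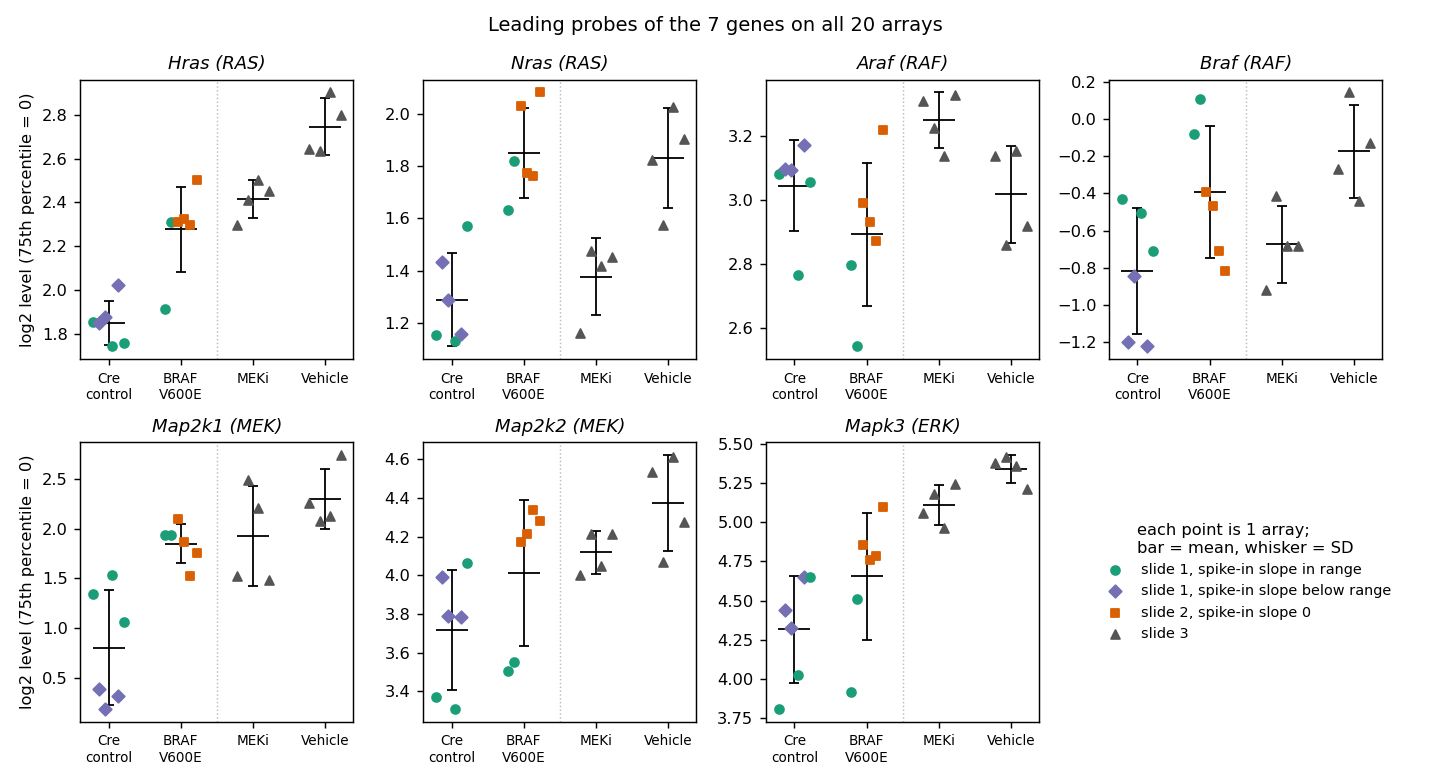
Log2 level (vertical axis) of the leading probe of each of the 7 genes on all 20 arrays, by group, with 1 point per array, the mean as a bar and the SD as a whisker. Colours and shapes give the slide and the spike-in class. Nras lies higher on all 6 BRAFV600E arrays than on all 6 Cre control arrays and lower on all 4 MEKi arrays than on all 4 Vehicle arrays.

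Across all 4 groups, the order of the levels of the leading probes ran mostly from Vehicle down to Cre control. Vehicle had the highest mean and Cre control the lowest for Hras, Braf, Map2k1, Map2k2 and Mapk3, with MEKi and BRAFV600E between them. For Hras the means were 2.75 ± 0.13, 2.42 ± 0.09, 2.28 ± 0.19 and 1.85 ± 0.10 (SD, n = 4, 4, 6 and 6) in Vehicle, MEKi, BRAFV600E and Cre control. For Nras the order was BRAFV600E (1.85 ± 0.17), Vehicle (1.83 ± 0.19), MEKi (1.38 ± 0.15) and Cre control (1.29 ± 0.18). For Araf it was MEKi (3.25 ± 0.09), Cre control (3.05 ± 0.14), Vehicle (3.02 ± 0.15) and BRAFV600E (2.89 ± 0.22). Of the 21 pairs of neighbours in these orders, 19 had overlapping ranges, and the 2 that did not were Vehicle and MEKi for Hras and for Nras. Groups of different experiments lie on different slides, so that experiment and slide cannot be told apart and no test was run between them.

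The 2 experiments share no arrays, and 15 of the probes were tested in both. Of these, 9 were higher in BRAFV600E and lower in MEKi, 2 were lower and then higher (the leading Araf probe and a dim Map2k2 probe), and 4 had the same sign in both. Opposite signs, 11 of 15 here, were also found for 69.4% of the 37206 probes tested in both, so that the members' share is near that of the whole array. The leading Nras probe differed by 0.56 between BRAFV600E and Cre control and by -0.45 between MEKi and Vehicle, and the leading Map2k1 probe by 1.05 and -0.37.

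Within groups the genes did not vary as one. Taking each leading probe as its deviation from the group mean over 20 arrays, Map2k2 and Mapk3 had r = 0.80 and Braf and Map2k1 had r = 0.62. Braf ran against Map2k2 (r = -0.75) and Araf (r = -0.74), and Map2k1 against Mapk3 (r = -0.41). The arrays that give these values share slides and spike-in classes, so the values describe this set of arrays. For the members with a called probe, the other genes most similar to the leading probe were taken from 15366 genes well above background on all arrays. Values were centred within each experiment and not within groups, so differences between groups enter these r values. The genes were Ascc2 (r = 0.97) and Plpp2 (r = 0.93) for Nras, and Dcaf7 and Golph3 (r = 0.96 each) for Map2k1. For Map2k2 they were Cdk18 (r = 0.95) and Klc4 (r = 0.91), over 20 arrays that share the same slides. The leading Map2k2 probe is not the called one, and the deviations of these 2 probes from their group means had r = 0.10.

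The genes around the cascade were read from 7 lists with 73 genes in all, by the leading probe of each gene. In BRAFV600E against Cre control 14 of 71 tested genes were called higher and 1 lower, with a median difference of 0.09, and in MEKi against Vehicle 0 of 72 were called higher and 7 lower, with a median of -0.11. Most of these calls lay in the list of genes that ERK signalling is known to induce. The calls in BRAFV600E include Rasal1, which passed the filter through the BRAFV600E arrays, so no direction is read from it there. The lists were chosen with results of these data known, so their counts are a description and no independent evidence of direction.

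Of the 10 genes in that output list, which holds phosphatases, inhibitors and transcription factors induced by ERK, 8 were called higher in BRAFV600E and 10 of 10 lay above 0, with a median of 0.93. These 10 include Fosl1 (0.74, limma adjusted p = 0.465), well above background on 5 BRAFV600E but only 3 Cre control arrays. No direction is read from Fosl1 there. In MEKi 6 were called lower and 10 of 10 lay below 0, with a median of -1.65. Etv4, a transcription factor of the ETS family, was higher by 2.50 ± 0.27 (SE, limma adjusted p = 0.000267) in BRAFV600E and lower in MEKi, with a difference of -2.95 ± 0.23 (adjusted p = 0.00433). Spry4, an inhibitor of receptor signalling to RAS, differed by 2.19 ± 0.28 (adjusted p = 0.000827) and by -2.34 ± 0.24 (adjusted p = 0.00867). Phlda1 differed by 1.76 (adjusted p = 0.0106) and by -2.14 (adjusted p = 0.0466). Dusp4, a phosphatase that acts on MAP kinases, was higher by 1.65 (adjusted p = 0.000512) in the first comparison. Etv5 was lower by 2.57 on the log2 scale in the second, with a difference of -2.57 ± 0.17 (adjusted p = 0.0021). With slide as a block 7 of the 10 were called in the first comparison, and without the 3 Cre control arrays below the spike-in range 4 were. In the second, where 4 MEKi and 2 Vehicle arrays had Y-linked signal, the 6 calls fell to 1 with the Y-linked level as a covariate (7 probes called over the whole array), to 3 without scaling and to 3 without MEKi array 1. The differences of the 10 output genes ranged from 0.64 to 2.50 in BRAFV600E and from -2.95 to -0.24 in MEKi, against -0.15 to 1.05 and -0.50 to 0.23 for the leading probes of the 7 cascade genes, so that the ranges overlapped in both.

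Among the ERK-activated kinases, 2 of 7 were called higher in BRAFV600E: Mknk2, which phosphorylates a translation initiation factor, by 0.86 (adjusted p = 0.00404) and Rps6ka4, a nuclear kinase that acts on chromatin, by 0.77 (adjusted p = 0.0124). In MEKi 0 of 7 were called by limma, all 7 lay below 0 (median -0.35), and the smallest adjusted p was that of Rps6ka4 at -0.41 (adjusted p = 0.238, unadjusted 0.0141). Of 10 RAS GTPase-activating proteins, which switch RAS off, 1 was called in each comparison and it was Rasal1. In the first comparison it differed by 3.37 ± 0.35 (adjusted p = 0.000211), with only 3 of 6 Cre control arrays well above background. It passed the filter there through the BRAFV600E arrays, so no direction is read from that difference. In the second, well above background on all 4 arrays of each group, Rasal1 differed by -2.86 ± 0.42 (adjusted p = 0.0288). The medians of this list were near 0 in both comparisons (0.00 and 0.01).

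The remaining lists held 0 to 2 calls each in BRAFV600E, where 9.33% of all probes were called, and 0 in MEKi, where 0.927% were. Of 8 other genes of the RAS, RAF, MEK and ERK families 1 was called higher in BRAFV600E, Rras, by 0.49 (adjusted p = 0.0311), with a list median of -0.08, and 0 of 8 were called by limma in MEKi, where Mras had the smallest adjusted p at 0.212 (difference 0.45). Exchange factors load RAS with GTP. Of 12 adaptors and exchange factors tested, 1 was called higher in BRAFV600E, Rasgrf2, by 0.71 (adjusted p = 0.0114), and 0 of 13 in MEKi. The smallest p there (adjusted p = 0.245) was that of Rasgrf1, which was well above background on 1 of 4 Vehicle arrays and passed the filter through the MEKi arrays, so no direction is read from it. Of 11 scaffolds and modulators, Ppp2ca, a phosphatase subunit, was higher by 0.60 (adjusted p = 0.0375) and Pebp1, a protein that binds RAF and hinders it, was lower, with a difference of -0.82 (adjusted p = 0.0489). In MEKi 0 of 11 were called (Cnksr3 at 0.55, adjusted p = 0.257). Of 13 genes in the parallel MAP kinase modules 0 were called in either comparison, with Map2k4 at 0.76 (adjusted p = 0.0631) in the first and Mapk11 at -0.70 (adjusted p = 0.127) in the second.

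**Figure D4:**
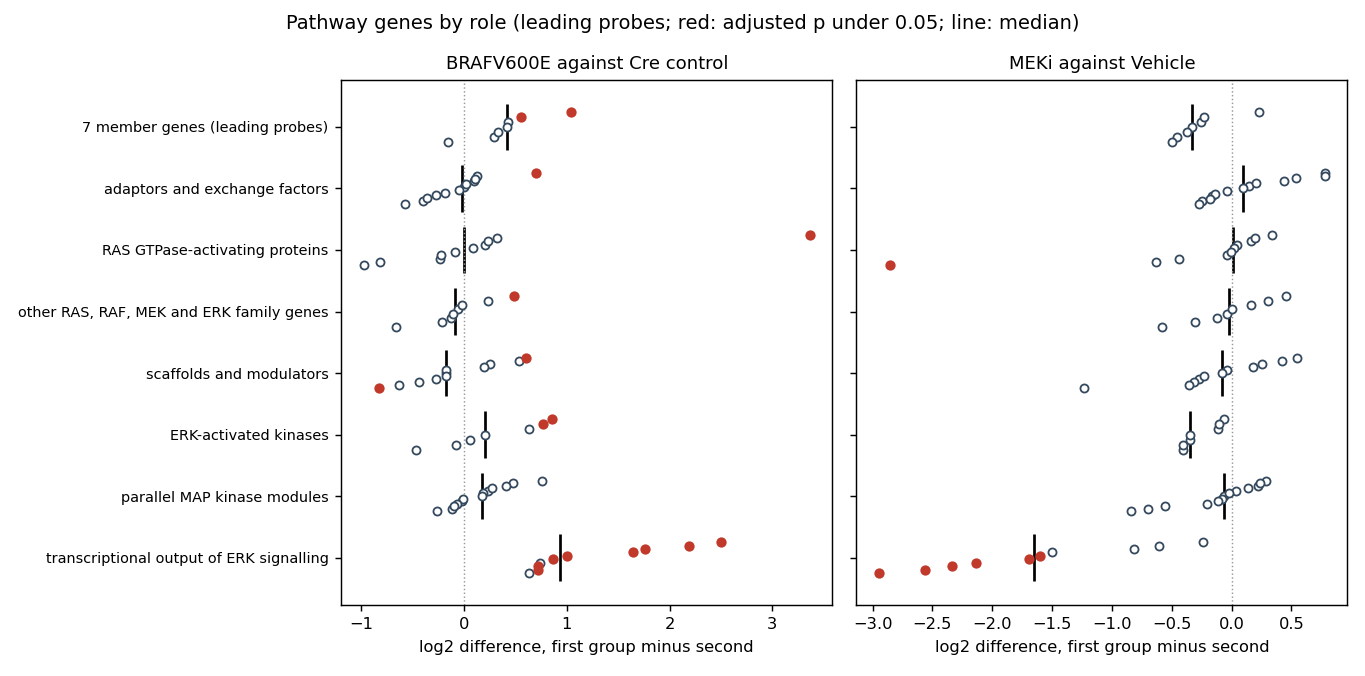
Log2 difference (horizontal axis) of the leading probe of each gene, 1 point per gene, for the 7 cascade genes and 7 lists of other pathway genes, with a line at each median. Red marks an adjusted p under 0.05; the output list lies to the right in BRAFV600E (median 0.93) and to the left in MEKi (median -1.65).

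**Figure D5:**
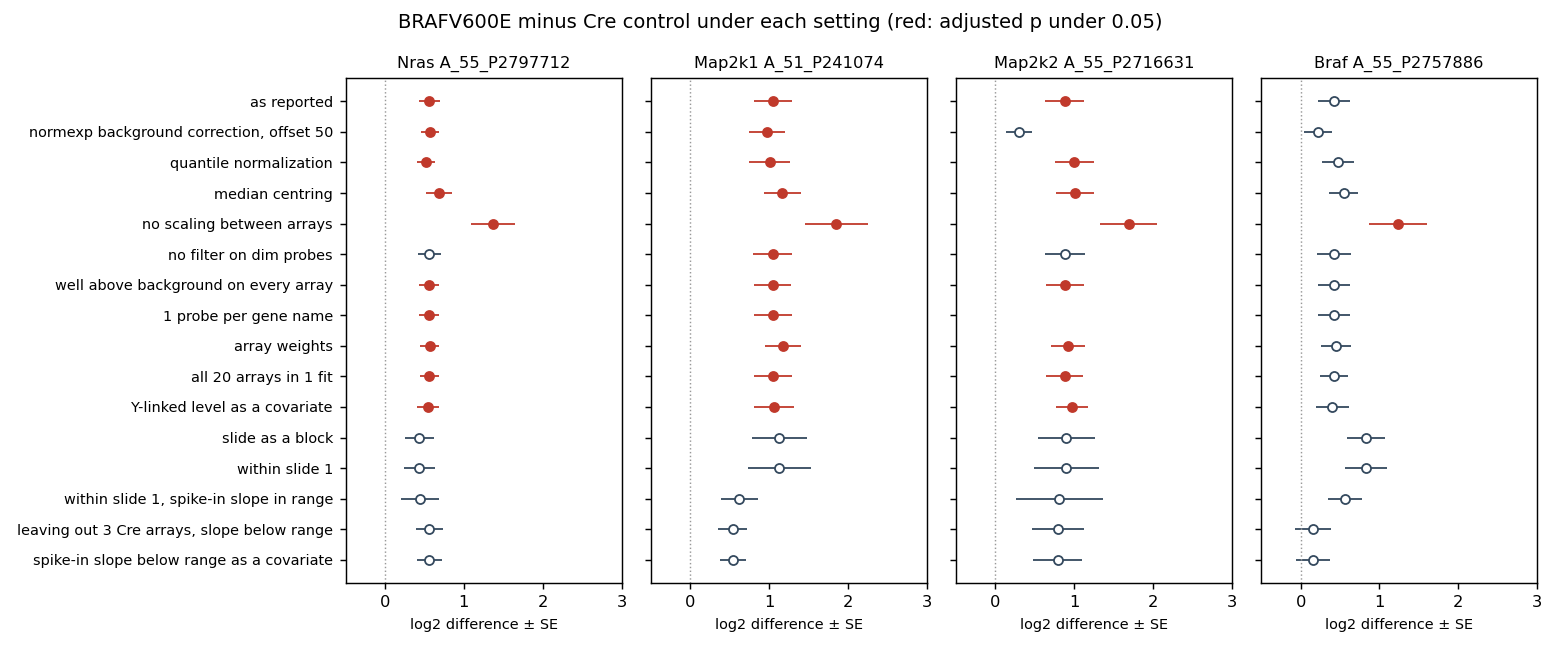
Log2 difference between BRAFV600E and Cre control with its SE (horizontal axis) for 4 probes under each setting tried, in red where the adjusted p was under 0.05. The Nras estimate stays between 0.44 and 0.68 in all settings with scaling between arrays, and the Map2k1 estimate falls to 0.54 without the 3 Cre control arrays below the spike-in range.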

How the data were processed

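The authors extracted each scanned array with Agilent Feature Extraction 10.5.1.1, which subtracted background and wrote a processed intensity per spot. The deposited intensity is linear and not normalized between arrays. Flags of 0 or 1 in the deposited files, a measure other than intensity, say whether a spot stood clear of background, was saturated or was an outlier, and were used to filter. The deposited series matrix held the same intensity within 0.5% for 100% of spots. Probe positions are those of the files (build mm9), and other genes were named through RefSeq (GRCm38.p6, names only).

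Control and outlier spots were left out, the log2 of the processed intensity was taken, the array's 75th percentile subtracted and copies of a probe averaged. No spot was saturated, and 60.8% to 76.8% of spots were well above background. Precision is limited by how many arrays there are. The 12 and the 8 arrays were fitted separately by limma 3.58.1 in R 4.3.3 (lmFit, eBayes, two-sided, Benjamini-Hochberg over all 38501 or 39249 probes), checked on simulated data. Groups came from the labels, and replicate numbers follow accession order and pair no samples. The members and lists were chosen with earlier results of these data known. Every member probe is given; of each list at most 4 called genes with the largest difference are named, or the 1 with the smallest p. The alternatives were background correction, scaling, filters, array weights, covariates, slide, spike-in class and leaving out each array. The fits without the spike-in class below range, with that class as a covariate and on gene means, and all alternatives for the lists, were chosen after seeing the data.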

Additional observations from a re-analysis of the deposited data

Results flagged for a closer look

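Of 64 sets of values (1 tested probe in 1 group), 4 held 1 array apart from the rest by Dixon's test, where chance gives about 1 in 20. The leading Hras probe read 1.92 on BRAFV600E array 1, with the next at 2.30. The second Nras probe read 1.35 on MEKi array 3, with the next at 1.16. The leading Araf probe read 2.76 on Cre control array 4, with the next at 3.06. A Braf probe that was not called read -1.94 on Vehicle array 1, with the next at -2.93. Leaving out BRAFV600E array 1 brought the leading Hras probe past the threshold (0.50, limma adjusted p = 0.0296).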

How the results depend on the processing

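Of 689 values of the member probes under the alternatives, 604 kept their direction and their side of the threshold, 29 lost a call, 21 gained one and 35, over 10 probe and comparison pairs, changed sign. Against 3 of 15 member probes called in BRAFV600E (9.33% of all probes), normexp called 4 (24.03% of all probes) and quantile scaling 4 (8.95%), and 5 were called with median centring (10.6%), with array weights (13.2%), with all 20 arrays in 1 fit (15.0%) and with probes well above background on every array (13.5%). Without a filter on dim probes 1 was called (4.22%), and without scaling 11 (42.3%), where all probes shifted by a median of 0.80 and 98.2% of calls were higher (54.9% as reported, 76.8% of 4088 with median centring, 31.1% of 9253 with normexp). With slide as a block, within slide 1, within the slide 1 arrays in spike-in range, without the 3 Cre control arrays below that range and with that class as a covariate, 0 were called by limma, where 1974, 699, 1, 515 and 968 of all 38501 probes were. The fits with slide as a block and within slide 1 give the same estimates, because slide 2 holds BRAFV600E arrays alone. At an unadjusted p under 0.05, 6 of 15 passed with slide as a block and 4 of 15 in each of the other fits, against 23.5%, 20.1%, 11.8%, 17.0% and 18.9% of all probes in the same order and 27.4% in the fit as reported. On the mean of each gene's probes, 2 of the 7 genes were called (10.0% of all), Map2k1 at 1.06 (adjusted p = 0.0297) and Hras at 0.43 (adjusted p = 0.0448). Leaving out 1 array gave from 1 to 4 calls. There was 1 without Cre control array 5 (5.71% of all probes) or BRAFV600E array 3 (6.31%), and 4 without Cre control array 4 (13.2%). Pathway genes called in BRAFV600E were 15 as reported, 23 with normexp, 39 without scaling, 9 with slide as a block, 5 within slide 1, 0 within its arrays in range and 7 without the arrays below range. In MEKi they were 7 as reported, 4 without scaling, 1 with the Y-linked level as a covariate and 3 to 7 on leaving out 1 array, and no member was called under any alternative (smallest adjusted p 0.0713, with array weights). Probes that changed sign in BRAFV600E were Braf A_55_P2170787 (-0.08 as reported, 0.057 with quantile scaling, 0.045 with median centring, 0.73 without scaling, 0.20 with slide as a block and within slide 1, 0.44 in range, 0.16 without the arrays below range and with the covariate, -0.18 to 0.050 on leaving out 1 array) and Nras A_55_P2826573 (-0.02, and in the same terms 0.11 with median centring, 0.80 without scaling, 0.062 without the arrays below range and with the covariate, and -0.064 to 0.051 on leaving out 1 array). Without scaling Araf A_51_P301259 stood at 0.66, Map2k2 A_55_P2716627 at 0.56 and Braf A_55_P2850844 at 0.67. Braf A_55_P2850844 stood at 0.21 with slide as a block and within slide 1 and at 0.25 in range, and Map2k2 A_55_P2716627 at 0.085 in range and 0.14 without the arrays below range and with the covariate. With slide as a block and within slide 1, Map2k2 A_51_P439626 stood at -0.19 (-0.051 in range) and Mapk3 at -0.10. Araf A_55_P2049856 ranged from -0.032 to 0.13 on leaving out 1 array. In MEKi, Braf A_65_P17330 stood at 0.11 with the Y-linked covariate and Braf A_55_P2170787 ranged from -0.39 to 0.033 on leaving out 1 array. The cause of these changes was not tested. The fits within a slide or class also have fewer arrays, and the 2 cannot be told apart there. Dim probes near background set the limit for Hras, Braf and Map2k2, of which 4 probes could not be tested. No paired analysis was possible because replicate numbers follow accession order and pair no samples.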
